A study of Mus musculus with 4 samples.

Results

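The 38 genes described here belong to the unfolded protein response, the cell's answer to misfolded protein in the endoplasmic reticulum (ER), and to the amino acid stress response that converges with it on the transcription factor ATF4. They were taken as a fixed list of symbols. Of these, 35 had a probe under their platform symbol, and Atf6, Dnajb11 and Sdf2l1 were not analysed here. A gene with several probes was read from the one with the highest mean signal, and a gene counted as detected where the detection p-value was under 0.01 on at least 1 array. That left 32 members of the 10359 genes detected in the series. Ern1, Canx and Psph were detected on no array. At the edge of this limit, Cars was detected only on the no DAPT day 4 array, at an intensity of 23.3, while the brightest signal of Ern1 was 7.07 and that of Psph 5.98.

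The cells were primary keratinocytes from neonatal mice of the 129 background with a Pou5f1::GFP transgene, and the design text says that they had received reprogramming factors, which it does not name. They were profiled with 2.5 uM DAPT on day 4, with no DAPT on day 4, with DAPT on day 7 and with no DAPT on day 7. DAPT inhibits gamma-secretase, the protease that frees the intracellular part of Notch receptors. Each group is 1 bead array, so no difference between 2 arrays has a replicate error or a p-value. Differences are given as log2 of the first group over the second, and 2-fold was the size called. All 4 groups share the transgene, the background and the transduction, and whether their cultures came from separate animals is not stated.

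Unfolded protein in the ER is sensed by the membrane proteins PERK (Eif2ak3), IRE1 (Ern1) and ATF6. PERK phosphorylates the translation factor eIF2, which slows most protein synthesis and favours translation of the Atf4 mRNA. Other kinases act on eIF2 when amino acids are scarce, so ATF4 drives amino acid synthesis, transport and tRNA charging as well as stress effectors. IRE1 splices the Xbp1 mRNA, and XBP1 and cleaved ATF6 raise ER chaperones and degradation factors. In the epidermis, the unfolded protein response is also switched on as keratinocytes differentiate. ATF4 is controlled largely at translation and XBP1 by splicing, and an array signal shows neither.

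The arrays differed in brightness. Mean intensity was 365 with DAPT and 472 without on day 4, and 416 with DAPT and 323 without on day 7. Members detected numbered 30 and 32 on day 4 and 31 and 27 on day 7, in the same order. Of 14 keratinocyte markers with a probe, 13, 13, 13 and 12 were detected; Krt1 was detected on none. All 9 fibroblast markers were detected on every array, and their summed intensity was 31732 with DAPT and 24924 without on day 7, against 15583 and 20759 on day 4. The summed keratinocyte signal was 20614 and 13624 on day 7, against 35340 and 37378 on day 4. Of 5 immune markers 2 were detected on each array, and Ptprc, the pan-leukocyte antigen, on none. Of 6 melanocyte markers 3 or 4 were detected on each array, and of 5 endothelial markers 2 or 3. The part of these cell types in the differences between days was not tested. Detected probes that read the same gene differed from each other with an SD of 0.50 in the DAPT difference on day 4 and 0.34 on day 7, and of 0.27 in the day difference with DAPT and 0.59 without, on the log2 scale.

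With DAPT on day 4, Atf4 and 6 other members had signals at least 2-fold lower, and no member had a signal at least 2-fold higher. These 7 were Atf4, Calr, Phgdh, Pdia3, Pdia4, Ddit3 and Sesn2, out of 32 compared. They are 21.9% of the members compared, where 7.28% of all genes differed by that much, 3.55% lower and 3.73% higher. On day 7 the members called stood the other way: Sesn2, Phgdh and Atf4 were at least 2-fold higher with DAPT and 0 of 31 members were lower. Of all genes 2.08% differed that much on day 7, 1.62% higher and 0.464% lower. The median over the members was close to 0 on both days, at -0.005 and -0.002, against 0.08 and -0.05 for all genes. With median scaling the member medians became -0.16 and 0.24, and the counts 0 higher and 7 lower on day 4 and 4 higher and 0 lower on day 7. That scaling put the median of all genes at -0.10 on day 4 and 0.17 on day 7. It gave 177 genes higher and 672 lower on day 4, against 370 and 352 with quantile normalization, and 348 and 16 on day 7, against 157 and 45. In bulk RNA, fewer cells of a type and less RNA per cell cannot be told apart.

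**Figure D1:**
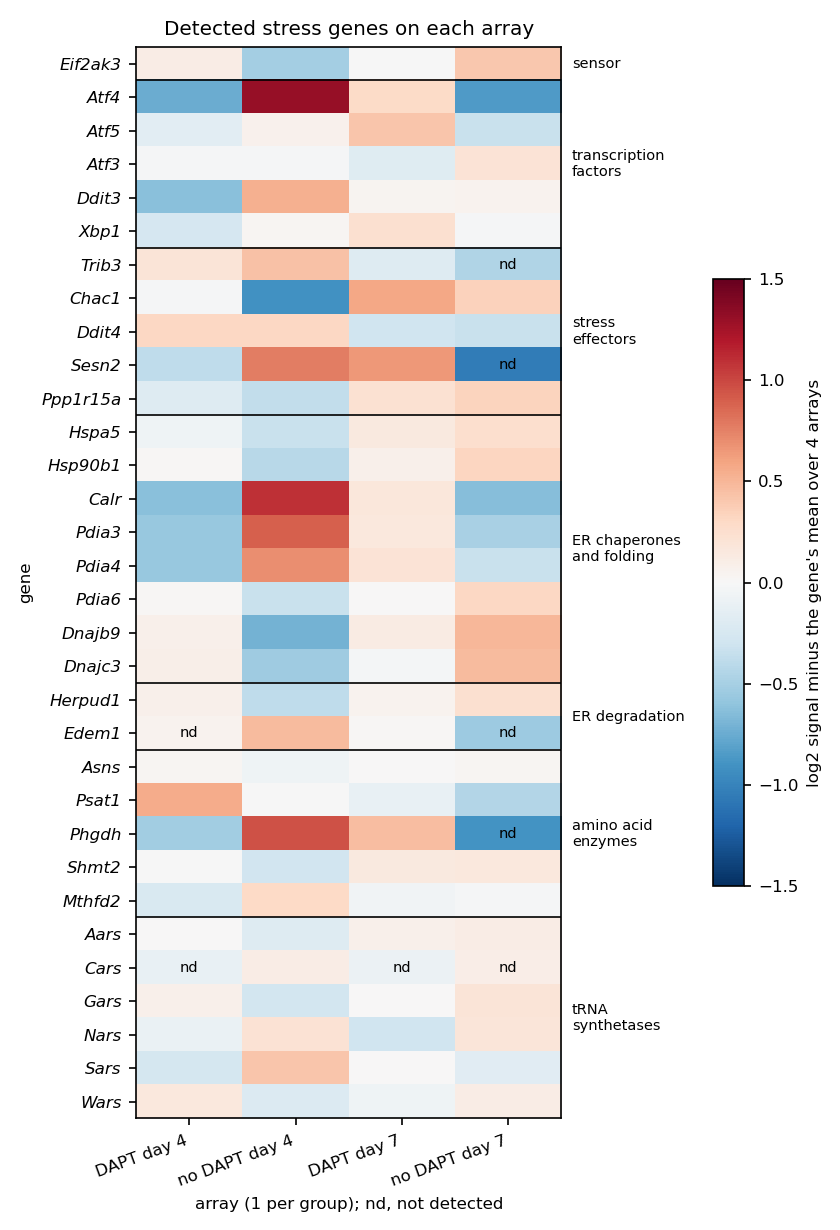
Heat map of the 32 detected members (rows, grouped by role) on the 4 arrays (columns, 1 array per group); colour is the normalized log2 signal minus that gene's mean over the 4 arrays, and nd marks a signal that was not detected. Atf4, Calr, Pdia3, Pdia4, Sesn2 and Phgdh are highest on the no DAPT day 4 array, and Dnajb9, Dnajc3, Hsp90b1 and Chac1 are lowest there.

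Between the days, 10 of 32 members differed at least 2-fold without DAPT. Lower on day 7 were Atf4, Phgdh, Sesn2, Calr, Pdia3, Pdia4 and Edem1, and higher were Chac1, Dnajb9 and Dnajc3, where 13.9% of all genes differed, 6.51% lower and 7.39% higher. With median scaling 1 member was higher and 6 were lower, the median of all genes was -0.14 against 0.09, and 315 genes were higher and 1212 lower, against 730 and 643. With DAPT, Sesn2 and Atf4 were at least 2-fold higher on day 7 and 0 of 31 members were lower, where 4.93% of all genes differed, 2.97% higher and 1.96% lower. Median scaling gave 418 genes higher and 123 lower, against 293 and 193, with a median of 0.11 against -0.03. The median over the members was 0.08 with DAPT and -0.02 without. The DAPT comparisons share arrays with the day comparisons, since each array enters 1 of each kind, so the values of the 2 kinds are not independent; the 2 DAPT comparisons share none.

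**Figure D2:**
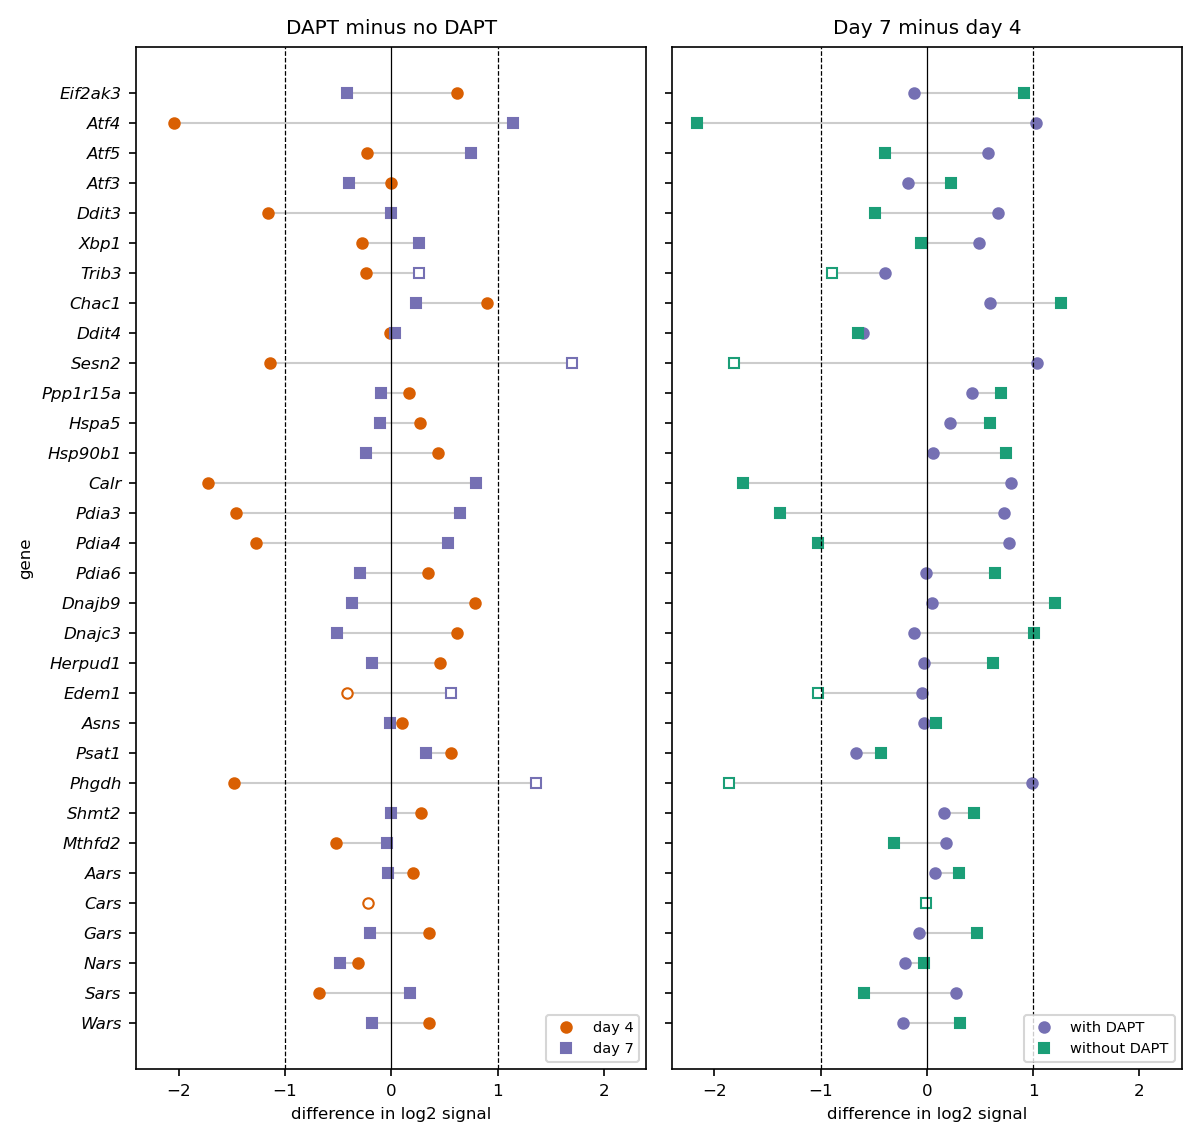
Differences in normalized log2 signal for each detected member (rows): left, DAPT minus no DAPT on day 4 (circles) and day 7 (squares); right, day 7 minus day 4 with DAPT (circles) and without DAPT (squares). Open symbols have an undetected dimmer array, and dashed lines mark 2-fold; the DAPT differences of Atf4, Sesn2 and Phgdh lie beyond 2-fold on opposite sides on the 2 days.

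Of the sensors, only Eif2ak3 was detected. Its log2 signal was 8.93 with DAPT and 8.32 without on day 4, and 8.81 with DAPT and 9.23 without on day 7. The order of its arrays after normalization was thus the reverse of that of Atf4. Its intensities before normalization were 409 with DAPT and 420 without on day 4, and 455 and 442 on day 7, which is not that order. None of its 4 normalized differences reached 2-fold, the farthest being 0.92 between the days without DAPT.

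Atf4, the transcription factor at the centre of the response, had a log2 signal of 7.91 with DAPT and 9.95 without on day 4. On day 7 it stood at 8.94 with DAPT and 7.79 without. As intensities before normalization these were 188 and 1242 on day 4, and 494 and 142 on day 7. The untreated day 4 array was highest and the untreated day 7 array lowest, with the DAPT arrays between them. Atf4 was thus 4.12-fold lower with DAPT on day 4 and 2.21-fold higher on day 7. Under the 8 other settings the day 4 difference lay between -2.63 and -1.86 and the day 7 difference between 1.03 and 1.69. Among these settings, the changes of detection filter and the mean over probes could not alter Atf4, which had no further probe. Between the days it was 4.47-fold lower on day 7 without DAPT and 2.04-fold higher with DAPT, the second of which was 0.93 with an offset of 50 and 0.97 in the authors' normalized values, both short of 2-fold.

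Ddit3 encodes CHOP, a factor that promotes cell death under lasting stress. Its log2 signals were 8.58 with DAPT and 9.74 without on day 4, and 9.25 on both day 7 arrays. The day 4 difference of -1.16 was matched by its other probe, at -1.11, and the other probe stood at 0.05 on day 7. DAPT on day 4 was its lowest array in both probes and no DAPT on day 4 its highest.

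The other factors differed less. Xbp1, the IRE1 target, had log2 signals of 11.10 and 11.38 with and without DAPT on day 4, and 11.59 and 11.33 on day 7. Its widest difference was 0.49, between the days with DAPT. Atf5, which is translated under eIF2 phosphorylation in the manner of Atf4, was 9.78 and 10.01 on day 4 and 10.36 and 9.61 on day 7, differences of -0.23 and 0.75. Atf3, a stress-induced repressor, stood at 7.06 on both day 4 arrays and differed by -0.40 with DAPT on day 7.

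The effectors below ATF4 did not follow it as a group. Sesn2, which encodes the leucine sensor Sestrin2, an inhibitor of the growth kinase complex mTORC1, had log2 signals of 5.13 with DAPT and 6.27 without on day 4, and 6.16 and 4.46 on day 7. The last of these was not detected. Taken against the lowest detected signal of that array, 4.525, the DAPT signal of day 7 was higher by at least 3.11-fold. On the same terms, without DAPT the gene was at least 3.35-fold lower on day 7 than on day 4. These are not strict limits, since undetected signals can lie higher, as Cars did on that array at 5.03. Its other probe was detected only on the no DAPT day 4 array, at 4.99. With an offset of 50 none of the 4 Sesn2 differences reached 2-fold, and the DAPT differences were -0.69 and 0.91. With the mean over probes they were -0.87 and 0.85.

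Chac1 encodes a glutathione-degrading enzyme and is a common marker of ATF4 activity. Its log2 signals were 9.88 with DAPT and 8.98 without on day 4, and 10.47 and 10.24 on day 7. It was lowest on the no DAPT day 4 array, where Atf4 was highest, and it was higher with DAPT on both days. Between the days it was 1.51-fold higher on day 7 with DAPT, and higher by 1.26 on the log2 scale without DAPT. The difference without DAPT was 0.98 with median scaling and 0.49 with no normalization between the arrays. Ddit4, which encodes the mTORC1 inhibitor REDD1, differed by -0.01 and 0.03 with DAPT on the 2 days, and by -0.60 with DAPT and -0.64 without between day 7 and day 4. Ppp1r15a, the eIF2 phosphatase subunit GADD34 that ends the response, was higher on day 7 by 0.43 with DAPT and 0.69 without. Trib3, a pseudokinase induced by ATF4 that restrains it, was dim at 5.38 and 5.62 on day 4 and 4.99 and 4.73 on day 7, the last of which was not detected.

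Of the 8 ER folding genes detected, 3 were lower with DAPT by 2-fold or more on day 4 and the other 5 differed by less. Calr encodes calreticulin, a chaperone of glycoproteins, and had log2 signals of 7.75 with DAPT and 9.47 without on day 4, and 8.54 and 7.74 on day 7. Pdia3, the disulphide isomerase that works with calreticulin, had 10.71 and 12.17 on day 4 and 11.44 and 10.79 on day 7. Pdia4, another isomerase of the ER, had 9.11 and 10.38 on day 4 and 9.88 and 9.35 on day 7. All 3 were highest on the no DAPT day 4 array and second on the DAPT day 7 array. They were lower with DAPT on day 4 by 3.30-fold, 2.75-fold and 2.41-fold, and higher with DAPT on day 7 by 1.74-fold, 1.57-fold and 1.45-fold. Between the days without DAPT they were lower on day 7 by 3.31-fold, 2.61-fold and 2.04-fold. For Pdia4 the authors' normalized values gave -0.94 on the log2 scale and an offset of 50 gave -0.99, both short of 2-fold.

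Hspa5 encodes BiP, the main chaperone of the ER and the standard marker of the unfolded protein response. Its log2 signals were 10.79 with DAPT and 10.52 without on day 4, and 11.01 and 11.12 on day 7. The differences with DAPT, 0.27 and -0.11, lie within the spread between probes of a gene. Over all settings tried they ranged from -0.19 to 0.27 and from -0.11 to 0.27, so neither kept its sign throughout. On day 4 the sign changed only with no normalization between the arrays, where the median of all genes was -0.49. On day 7 it changed with median scaling too, at 0.05. Hsp90b1, the ER form of HSP90, stood at 12.86 and 12.42 on day 4 and at 12.92 and 13.16 on day 7. Dnajb9, a co-chaperone of BiP and a target of XBP1, had 10.71 and 9.92 on day 4 and 10.76 and 11.13 on day 7. Dnajc3, the BiP co-chaperone P58IPK, had 9.24 and 8.62 on day 4 and 9.12 and 9.63 on day 7. After normalization these 3 and Pdia6 were lowest on the no DAPT day 4 array and highest on the no DAPT day 7 array. Dnajb9 was 2.31-fold and Dnajc3 2.01-fold higher on day 7 than on day 4 without DAPT, and they differed by 0.05 and -0.12 with DAPT. With no normalization between the arrays, the difference without DAPT was 0.57 for Dnajb9 and 0.19 for Dnajc3. The mean over probes gave 0.68 for Dnajb9, but it takes in its other probe, which was detected on no array. For Dnajc3, median scaling gave 0.68, the authors' normalized values 0.90 and an offset of 50 gave 0.95. Each of these was short of 2-fold.

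Both groups of folding genes hold members whose promoters carry the ER stress response element (ERSE), the sequence bound by ATF6 and XBP1 together with NF-Y. Promoter windows of 300 bases, 250 before to 50 after the start of the gene, came from RefSeq on build GRCm38.p6 and matched 34 of the 38 members, with 36 windows. Searched on both strands, the element, CCAAT and CCACG with 9 bases of any kind between them, stood in 6 of the 36 windows (16.7%) and in 39 of all 32851 windows (0.119%). The 6 were Hspa5, Hsp90b1, Calr, Canx, Pdia6 and Dnajc3. The sites are shown because Calr, 3.30-fold lower with DAPT on day 4, carries the same fixed letters as members that differed by under 2-fold. Each is read 5′ to 3′ along the strand of the element, with its fixed letters in capitals and 10 bases on each side.
Hspa5, chr2:34772025-34772043: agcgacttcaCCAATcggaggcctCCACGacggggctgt
Calr, chr8:84847075-84847093: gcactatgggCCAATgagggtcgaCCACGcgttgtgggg
Hsp90b1, chr10:86705638-86705656: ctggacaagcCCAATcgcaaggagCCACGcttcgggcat
Hsp90b1, chr10:86705533-86705551: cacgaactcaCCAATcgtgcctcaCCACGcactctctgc
Pdia6, chr12:17266491-17266509: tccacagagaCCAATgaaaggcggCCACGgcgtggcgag
Dnajc3, chr14:118937827-118937845: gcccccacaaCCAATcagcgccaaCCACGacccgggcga
Coordinates cover the element itself. It lies on the strand opposite to the gene in Calr and in the second site of Hsp90b1, and on the strand of the gene in the others. With DAPT on day 4 the difference was -1.72 for Calr, against 0.27 for Hspa5, 0.44 for Hsp90b1, 0.35 for Pdia6 and 0.62 for Dnajc3. On day 7 it was 0.80 for Calr and -0.11, -0.24, -0.30 and -0.51 for the others, in the same order. The UPRE core TGACGTGG was in 0 of the 36 windows and in 0.676% of all windows. A match is a description of letters and not evidence of binding.

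The whole windows of Hspa5, the standard marker, and of Calr, the folding gene with the farthest difference on day 4, follow, 5′ to 3′ along the gene, with the element in capitals.
Hspa5, chr2:34771840-34772139, plus strand: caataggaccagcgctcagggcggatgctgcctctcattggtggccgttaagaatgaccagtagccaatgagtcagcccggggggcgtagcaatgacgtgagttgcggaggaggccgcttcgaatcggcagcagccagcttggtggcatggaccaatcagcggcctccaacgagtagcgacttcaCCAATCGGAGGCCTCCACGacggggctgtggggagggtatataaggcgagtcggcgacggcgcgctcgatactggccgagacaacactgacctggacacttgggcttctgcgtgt
Calr, chr8:84846882-84847181, minus strand: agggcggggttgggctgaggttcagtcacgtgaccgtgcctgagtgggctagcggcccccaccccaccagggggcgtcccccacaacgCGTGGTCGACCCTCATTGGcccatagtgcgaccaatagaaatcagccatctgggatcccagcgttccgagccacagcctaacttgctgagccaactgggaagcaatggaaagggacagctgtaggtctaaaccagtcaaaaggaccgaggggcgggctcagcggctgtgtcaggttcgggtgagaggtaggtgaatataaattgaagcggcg

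Of the degradation factors, Herpud1, a membrane protein of the ER ubiquitin ligase complex, had log2 signals of 11.08 with DAPT and 10.61 without on day 4, and 11.05 and 11.24 on day 7. Its other probe differed in the same directions, by 0.56 and -0.31, where the first differed by 0.46 and -0.19. Edem1, which delivers misfolded glycoproteins to degradation, was detected only on the no DAPT day 4 array, at 5.56, and on the DAPT day 7 array, at 5.10. Its undetected signals were 5.14 with DAPT on day 4 and 4.54 without on day 7. Against its own undetected day 7 signal it was 2.03-fold lower than on day 4 without DAPT, which is not a strict lower limit. Cars was also undetected on that day 7 array, at 5.03. Edem1 passed the filter only through the arrays where it was high. Its difference between the days without DAPT was -0.97 with median scaling, -0.51 with an offset of 50 and -0.49 with the mean over probes. That mean takes in the other Edem1 probe, which was detected on no array.

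Among the enzymes of amino acid and one-carbon metabolism, Phgdh stood apart. It encodes the enzyme that commits a glycolytic intermediate to serine synthesis. Its log2 signals were 5.14 with DAPT and 6.62 without on day 4, and 6.12 and 4.76 on day 7, where the last was not detected. It was 2.80-fold lower with DAPT on day 4 and at least 2.57-fold higher on day 7. With an offset of 50 in place of 16 these shrank to -0.94 and 0.76 on the log2 scale, both under 2-fold. Psat1, the next enzyme of serine synthesis, did not share that pattern, with 10.67 and 10.10 on day 4 and 10.00 and 9.67 on day 7. It was higher with DAPT by 0.56 and 0.33, and lower on day 7 than on day 4 by 0.66 with DAPT and 0.43 without. The mitochondrial folate enzymes Shmt2 and Mthfd2 differed with DAPT by 0.28 and -0.52 on day 4, and both were within 0.04 of 0 on day 7.

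Asns, asparagine synthetase, is the classical ATF4 target. Its log2 signals were 11.72 with DAPT and 11.62 without on day 4, and 11.69 and 11.71 on day 7, so the 4 arrays span 0.10. A further probe of Asns, also detected on all arrays, had 9.82 and 9.76 on day 4 and 9.43 and 9.75 on day 7. The dimmest probe differed from both, with 5.20 and 6.53 on day 4 and 6.28 and 4.74 on day 7. It was detected only on the no DAPT day 4 and the DAPT day 7 arrays, so its other 2 values have no measured level, and it passed detection only where it was high. Which Asns transcript each probe reads was not determined here.

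**Figure D3:**
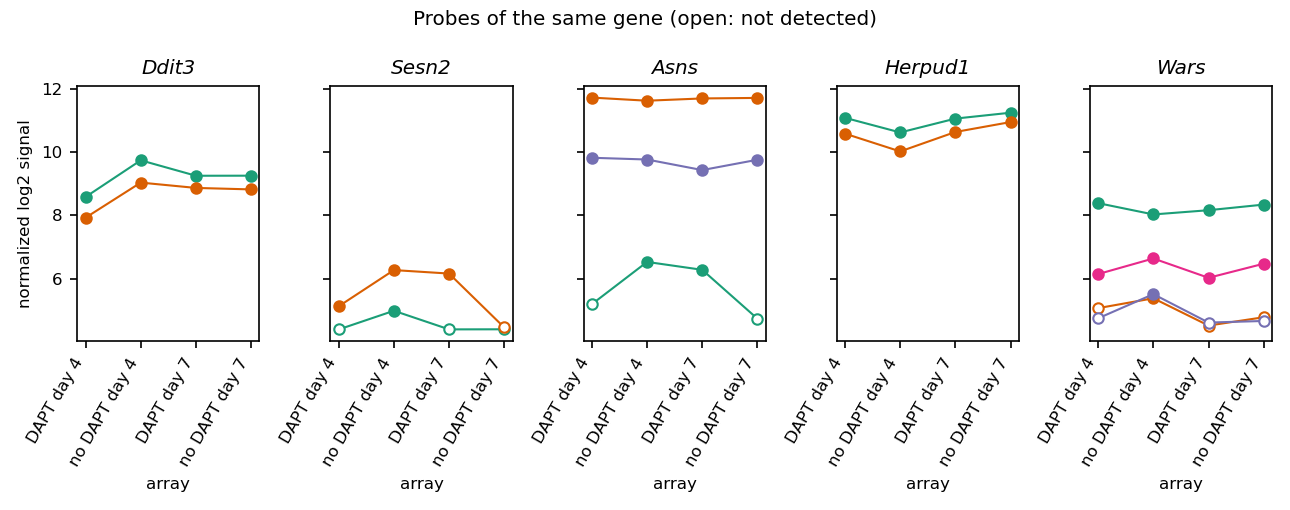
Normalized log2 signal (vertical axis) of every probe of 5 members on the 4 arrays (horizontal axis), 1 line per probe; open circles were not detected. The probes of Ddit3 and of Herpud1 run in parallel, while the dimmest Asns probe is detected on 2 arrays and the brightest is level over all 4.

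The composite element bound by ATF4 with C/EBP partners was searched as TGATGNAAN on both strands. It stood in 7 of the 36 member windows (19.4%) and in 1299 of all windows (3.95%). Among the genes were Asns, Atf3, Chac1, Gars, Herpud1 and Trib3. Their sites are shown because none of these 6 genes shared the 4.12-fold lower signal of Atf4 with DAPT on day 4. Fixed letters are in capitals, read along the strand of the element.
Asns, chr6:7693224-7693232: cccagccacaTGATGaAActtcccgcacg
Chac1, chr2:119351048-119351056: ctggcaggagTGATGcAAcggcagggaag
Herpud1, chr8:94386316-94386324: gggtgcgggcTGATGcAAcccgccgtggt
Atf3, chr1:191183436-191183444: gcggacttggTGATGcAAgtgcgagaagg
Gars, chr6:55037970-55037978: gcccggtgcaTGATGaAAtagcgcagcca
Trib3, chr2:152344039-152344047: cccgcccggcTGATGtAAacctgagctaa
The differences with DAPT on day 4 were 0.10 for Asns, 0.90 for Chac1, 0.46 for Herpud1, 0.00 for Atf3, 0.35 for Gars and -0.24 for Trib3. Phgdh, Sesn2 and Calr, which were lower, had no match in this window, which says nothing of elements elsewhere. The full cAMP response element TGACGTCA, a palindrome, was found in Ppp1r15a alone among the members (2.78% of their windows, against 1.79% of all). No match of any motif overlapped a match of another in the member windows.

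The whole windows of Asns and Chac1 are given, since Asns was level over the arrays and Chac1 was lowest where Atf4 was highest, 5′ to 3′ along the gene, with the element in capitals.
Asns, chr6:7693160-7693459, minus strand: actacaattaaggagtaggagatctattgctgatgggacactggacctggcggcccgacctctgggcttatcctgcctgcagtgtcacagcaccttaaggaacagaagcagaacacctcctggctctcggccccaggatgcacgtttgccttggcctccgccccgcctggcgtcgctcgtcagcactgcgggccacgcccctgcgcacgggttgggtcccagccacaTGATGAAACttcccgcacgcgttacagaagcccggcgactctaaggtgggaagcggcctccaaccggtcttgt
Chac1, chr2:119350992-119351291, plus strand: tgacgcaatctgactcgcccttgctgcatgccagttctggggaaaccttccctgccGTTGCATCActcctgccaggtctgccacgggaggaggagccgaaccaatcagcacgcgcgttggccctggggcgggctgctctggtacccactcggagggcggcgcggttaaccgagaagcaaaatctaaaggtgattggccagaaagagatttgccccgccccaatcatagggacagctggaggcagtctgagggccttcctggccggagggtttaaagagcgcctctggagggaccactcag

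The tRNA synthetases load amino acids onto tRNAs and include several ATF4 targets. None of the 6 that are members reached 2-fold in any comparison made, where 2.08% to 13.9% of all genes did. Eprs, Tars and Rars, synthetases outside the members, each reached 2-fold in at least 1 comparison. Sars, for serine, was lowest with DAPT on day 4, at a log2 signal of 8.64 against 9.32 without, and had 8.91 and 8.73 on day 7. Its other probe differed by -0.06 and 0.55 with DAPT on the 2 days, so the probes disagree on day 4. Nars, for asparagine, was lower with DAPT by 0.31 on day 4 and 0.49 on day 7. Gars, for glycine, had 13.22 and 12.87 on day 4 and 13.15 and 13.34 on day 7. The remaining detected members, Aars, Cars and Wars, differed by at most 0.36 with DAPT on the days they were compared. A dimmer Wars probe, also detected on all 4 arrays, differed by -0.49 and -0.44 with DAPT, where the Wars probe used differed by 0.36 and -0.18, so these probes disagree on day 4.

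The members were sorted by how their normalized signals followed the brightness of the arrays. In 9 of the 32 detected members (28.1%) the 2 brighter arrays, no DAPT on day 4 and DAPT on day 7, both stood above the other 2 after normalization; 15.2% of all detected genes did so. They were Atf4, Atf5, Xbp1, Sesn2, Calr, Pdia3, Pdia4, Phgdh and Sars. In 8 members of 32, against 23.3% of all genes, both brighter arrays stood below the other 2: Eif2ak3, Atf3, Pdia6, Dnajc3, Herpud1, Asns, Gars and Wars. The full order of the 4 arrays was that of their mean intensity in Atf4, Sesn2, Calr and Phgdh (12.5% of members, against 6.70% of all genes), and its reverse in 5 members (15.6%, against 8.59%). Of the 31 members compared on both days, 26 differed in opposite directions with DAPT on the 2 days, 12 of them lower on day 4 and higher on day 7 (38.7%, against 25.3% of 9259 genes) and 14 the other way (45.2%, against 38.3%). Opposite signs were thus the more frequent case over all genes too. This grouping was made after the values were seen, and the part of array brightness in these differences was not tested.

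**Figure D4:**
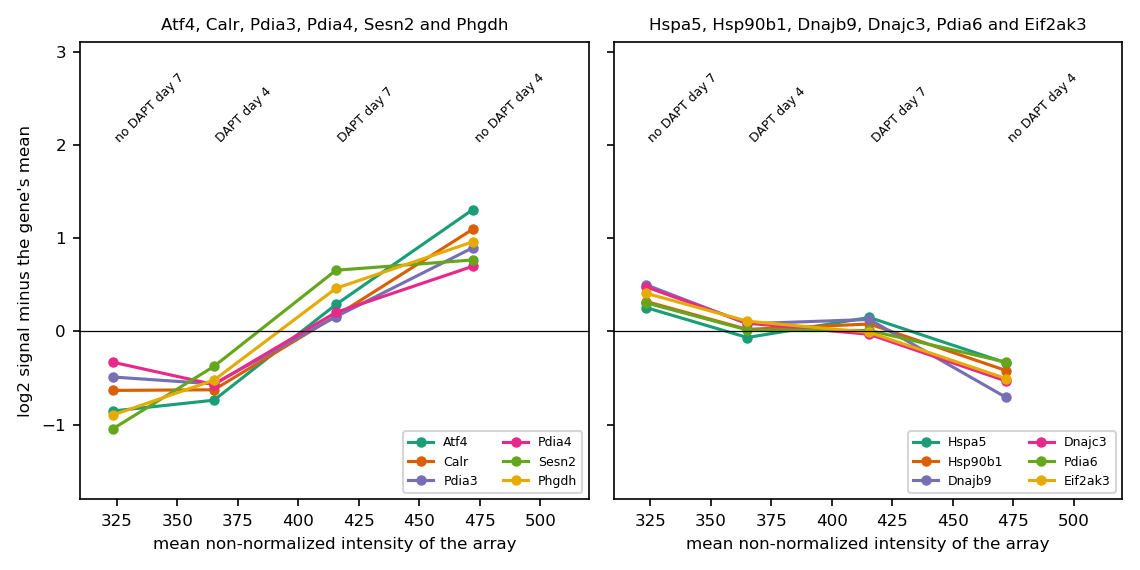
Normalized log2 signal minus the gene's mean over the 4 arrays (vertical axis) against the mean non-normalized intensity of each array (horizontal axis, arbitrary units), with 1 line per gene and 1 point per array. Atf4, Calr, Pdia3, Pdia4, Sesn2 and Phgdh (left) are higher on the brighter arrays, and Hspa5, Hsp90b1, Dnajb9, Dnajc3, Pdia6 and Eif2ak3 (right) are lowest on the brightest array.

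Other genes of the pathway, were counted from lists that do not overlap the members. Of 90 further genes 80 had a probe and 71 were detected. With DAPT on day 4, Sel1l and Tars were at least 2-fold higher, and Pdia5, Eif2b1, Traf2, Cth and Eprs lower, of 69 compared. Of all genes 3.73% were higher and 3.55% lower by that much. The median of these other pathway genes was -0.18, and 46 were below 0. On day 7, of 70 genes, Eprs was the 1 at least 2-fold higher with DAPT, 0 were lower, and the median was 0.09. Of all genes 1.62% were higher and 0.464% lower. Eprs, the glutamyl-prolyl-tRNA synthetase, had log2 signals of 6.87 with DAPT and 8.30 without on day 4, and 7.72 and 6.69 on day 7. Its highest array was that of Atf4, no DAPT on day 4. In all, 26 of these 71 genes (36.6%) had both brighter arrays above the other 2, and 7 (9.86%) had both below. Over all genes these shares were 15.2% and 23.3%.

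Among them, Manf, a secreted ER stress protein, had differences of -0.87 and 0.79 with DAPT on the 2 days. Pdia5, an isomerase, stood at 8.44 and 9.44 on day 4 and at 9.17 and 9.03 on day 7. Sel1l, the scaffold of the ER ubiquitin ligase, was 1.05 higher on day 4 and differed by -0.04 on day 7. Between the days without DAPT, 2 of these 70 genes, Sel1l and Slc6a9, were at least 2-fold higher, where 7.39% of all genes were higher and 6.51% lower. The 8 at least 2-fold lower were Derl2, Fkbp2, Eif2b1, Eif2b5, Traf2, Cth, Eprs and Rars, with differences of -2.09 for Cth and -1.45 for Rars, the arginyl-tRNA synthetase. With DAPT 0 were higher and Eif2b5, a subunit of the exchange factor that recharges eIF2, was lower. Of all genes 2.97% were higher and 1.96% lower there. Eif2b5 differed by -1.53 with DAPT and -1.38 without between the days, which made it the gene of these lists with the same 2-fold direction in both day comparisons.

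A model with terms for DAPT and day was fitted with limma to all 10359 detected genes. It has 1 residual degree of freedom, which is the difference between a gene's DAPT effects on the 2 days. For DAPT, 0 of 32 members passed an adjusted p of 0.05 and 0 an unadjusted p of 0.05, where 0.116% and 1.96% of all genes did. Ddit3 had the smallest p, with an effect of -0.58 (SE 0.38, adjusted p = 1.0), and Chac1 was next, with 0.56. Atf4 had -0.45, the mean of effects with opposite signs. For day, 0 members passed the adjusted threshold, where 1.83% of all genes did, and 1 of 32 passed the unadjusted one, where 9.41% did. That member was Chac1, at 0.93 higher on day 7 (SE 0.38, adjusted p = 0.297), and higher on day 7 in both pairs of arrays. Of the 71 other pathway genes 0 passed for DAPT and 2 for day. They were Eif2b5, at -1.45 (SE 0.38, adjusted p = 0.0128), and Cth, the cysteine-making lyase, at -1.28 (SE 0.38, adjusted p = 0.0484). Each was lower on day 7 in both pairs of arrays. The 2 day differences of Cth lay far apart, at -0.46 with DAPT and -2.09 without, which the shared SE does not reflect. With median scaling, or without the detection filter, 0 of all genes passed for day. No member passed under any of the other settings of the model. A missed threshold with 1 array per group does not show that the genes did not differ.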

How the data were processed

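RNA of 4 keratinocyte samples was hybridised to 1 Illumina bead array each. The authors' deposited table holds a non-normalized intensity per probe on a linear scale with a detection p-value beside it, per the file headers. The submitters' processing notes name BeadStudio and no version. Values below 0 show that background had been subtracted. The deposited value table of the series holds the authors' normalized intensity, by a method not stated.

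Background was corrected with limma 3.58.1 (R 4.3.3, neqc, negative controls inferred from detection p-values), followed by an offset of 16, quantile normalization and log2. The platform annotation gave 1 symbol to 23978 of 25697 probes and left 1719 unnamed here. A gene entered a comparison if detected (p under 0.01) on at least 1 of its 2 arrays. Where the dimmer array lacked detection, the fold is given as "at least N-fold". It is taken against the higher of that array's lowest detected signal and the probe's own, and the call at 2-fold used it. It is not a strict lower limit, since undetected signals can lie above the lowest detected one. The additive test was limma with Benjamini-Hochberg adjustment; it gave every gene the same SD, 0.384 on the log2 scale, and measures only the spread among these 4 arrays. Fits and counts were tested on simulated data. Groups came from sample titles, because the treatment field names DAPT for all 4 samples. Values on every array are given for members at least 2-fold different in any comparison, for Atf4, Xbp1, Hspa5 and Ddit3, and for examples of each role. Other pathway genes are named where at least 2-fold different or at an end of their list. The members and lists were chosen with earlier results of these data known. Alternatives changed the normalization, background, offset, probe choice and detection filter. The number of arrays limits the precision. The promoter matches of 1 member are not reported here. Counts, motif searches and figures used Python 3.11.15 with numpy 2.4.6, pandas 2.3.3 and matplotlib 3.10.9.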

Additional observations from a re-analysis of the deposited data

Results flagged for a closer look

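Atf4, Sesn2 and Phgdh stand out because the sign of their DAPT difference, at least 2-fold on each day, turned between day 4 and day 7; the difference between the days was not tested. For DAPT against no DAPT, Atf4 differed by -2.04 on day 4 and 1.14 on day 7. Sesn2 differed by -1.14 and 1.70, and Phgdh by -1.48 and 1.36. With an offset of 50 both genes were under 2-fold on both days, at -0.69 and 0.91 for Sesn2 and -0.94 and 0.76 for Phgdh. The no DAPT day 7 signal of both was not detected, so their 3.11-fold and 2.57-fold higher signals with DAPT are not strict lower limits. Requiring detection on both arrays left Atf4 as the 1 member called on day 7. Over all 9259 genes compared on both days, 50 did this (0.540%), 47 of them lower on day 4 and higher on day 7.

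In the same way, day 7 against day 4 ran opposite with and without DAPT for 2 members. Atf4 differed by 1.03 with DAPT and -2.16 without, and Sesn2 by 1.03 and -1.81. The day 7 signal of Sesn2 without DAPT was not detected, so its fold is given as at least 3.35, which is not a strict limit. Of 9380 genes compared, 24 did so (0.256%). These flags rest on the same 4 arrays as those above, with 1 array per group. Mean array intensity moved with them, at 365 and 472 on day 4 and 416 and 323 on day 7, with DAPT and without, and its part was not tested.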

How the results depend on the processing

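The directions of the members called in each comparison held under every other setting that gave a value, and the day 4 count of DAPT stayed between 5 and 9 from 7. With an offset of 50, the count of members at least 2-fold different was 1 on day 7 for DAPT, 6 between the days without DAPT and 0 with DAPT; the cause was not tested. Requiring detection on both arrays, which removes members, gave 1 on day 7 for DAPT. Between the days with DAPT, the authors' values gave 1 and the mean over probes 1. With no normalization between arrays, chosen after seeing the data, the counts were 7 higher and 0 lower on day 7, where 741 of all genes were higher and 6 lower, and 5 higher and 0 lower between the days with DAPT (600 and 81 of all genes). Between the days without DAPT they were 0 higher and 14 lower, against 3 and 7 with normalization, where 65 of all genes were higher and 2841 lower. The member medians were -0.55 and 0.47 with DAPT on day 4 and day 7 and -0.67 between the days without DAPT. Medians near 0 changed sign under several settings. For DAPT the limma model passed 12 genes, and 0 with median scaling, the mean over probes, no detection filter or day left out, 3 with the authors' values, and 1 with an offset of 50 or no normalization. For day it passed 190, and 0 with median scaling or no detection filter, 82 with an offset of 50, 40 with the mean over probes, 16 with no normalization and 1 with DAPT left out. Of the values of single members, 362 moved by less than the SD between probes of a gene and 0 of those at least 2-fold changed sign. These 362 include values that could not move. A change of detection filter leaves a gene's own difference as it was, which covers 44 values with detection on both arrays and 52 with no filter. The mean over probes likewise leaves a member with 1 probe as it was. Of the 46 that moved more, 34 did so with no normalization. Detection limits Sesn2, Phgdh, Edem1, Trib3 and Cars. No paired analysis was possible because each group holds 1 array and the labels give no replicate numbers, beyond the additive model itself, whose day term sets DAPT against no DAPT within each day.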

Other observations

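Amino acid transport and cysteine genes reported as ATF4 targets also differed among themselves. Cth, the cystathionine gamma-lyase that makes cysteine, had log2 signals of 8.85 with DAPT and 10.11 without on day 4, and 8.39 and 8.02 on day 7. Its difference between day 7 and day 4 was -0.46 with DAPT and -2.09 without. Slc7a11, the cystine importer, had differences of -0.12 and -0.95 with DAPT on day 4 and day 7, and was 0.78 higher on day 7 than on day 4 without DAPT. Slc6a9, a glycine transporter, had 0.91 and -0.21, and was 1.33 higher on day 7 without DAPT. Of 22 compared on day 7, 0 of these further reported targets reached 2-fold with DAPT, and on day 4 Cth alone of 20 did. Of all genes 2.08% did on day 7 and 7.28% on day 4. The limma model's adjusted p for DAPT was 1.0 for each of these 3 genes.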
